A study of Mus musculus with 6 samples.

Results

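Transcript levels of 10 adipocyte genes were compared between mouse osteosarcomas with and without Skp2. The 10 genes, Pparg, Cebpa, Adipoq, Lep, Fabp4, Lpl, Lipe, Plin1, Plin4 and Cidec, were chosen by name from the 56196 genes in the deposited count table, and all 10 were found there. Polyadenylated RNA from 6 tumours was sequenced, and values listed per tumour follow the replicate numbers. The 3 triple knockout (TKO) tumours carried Osx1-Cre, Rb1lox/lox and p53lox/lox alleles and were SKP2-/-, and the 3 double knockout (DKO) tumours carried the same Cre and floxed alleles with Skp2 intact. In all 6 tumours Cre was thus under control of Osx1 (also called Sp7), a factor active in cells that become osteoblasts, with Rb1 and p53 as its targets. SKP2 is the substrate-recognition subunit of a ubiquitin ligase that marks cell cycle inhibitors for degradation. In each group replicate 1 came from a male and replicates 2 and 3 from females, and the labels give no ages.

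No read was counted for Skp2 in the 3 TKO libraries (0 counts in each), against 20, 64 and 46 in the DKO libraries. Rb1 had 2200, 1082 and 880 counts in TKO, against 428, 351 and 379 in DKO, and Trp53 had 203, 783 and 430 counts in TKO, against 138, 118 and 124 in DKO. Gene counts do not separate the floxed exons from the rest of a transcript or tumour cells from other cells, so they do not check the deletion of either gene. Total gene counts were 17063231 to 22488819 per library. TKO1 stood apart. Its correlation of log2 CPM across genes was 0.83 with TKO2 and 0.805 with TKO3, against 0.915 between TKO2 and TKO3 and at least 0.933 within DKO. The labelled tumour type was checked against osteoblast genes. Sp7 and the bone matrix gene Ibsp had 0 counts in TKO1, whereas Sp7 reached 206 CPM in TKO2 and 432 CPM in TKO3. Sp7 stood at 7.94, 0 and 0.414 CPM in the DKO tumours, and Ibsp was at 0 in DKO2 and DKO3. Of 7 osteoblast markers tested, Dmp1 and Phex rose in edgeR, where 7.36% of all genes tested passed. DESeq2 called these and Alpl, and limma-voom called Dmp1 alone. Dmp1 reached the minimum count for testing in TKO libraries alone and so had to be higher there. Col1a1, which connective tissue cells also make, had 208, 30100 and 26800 CPM in TKO, against 11700, 11200 and 9910 CPM in DKO. The other 7 of the 8 markers listed summed to 120.0, 2750 and 7110 CPM in TKO, against 136, 84.4 and 114 CPM in DKO. Where leaving out TKO1 changes the call of an adipocyte gene, the value without it is given. For list genes that were not called, values without TKO1 are not given here.

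Adipocytes store fat as triglyceride and arise from mesenchymal cells that can also become osteoblasts. The nuclear receptor PPAR gamma and the transcription factor C/EBP alpha switch on each other's genes and the fat cell programme. Among the genes they control are the hormones adiponectin and leptin, proteins that carry and release fatty acids, and proteins that coat the lipid droplet. Several of these genes are also used elsewhere. Macrophages and capillary endothelium express Pparg and Fabp4, myeloid cells express Cebpa, and muscle and macrophages express Lpl. Adipoq, Plin1, Cidec and Lep are closer to markers of fat cells alone.

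Cebpa rose in TKO tumours and was the only adipocyte gene to pass the test. Pparg, Adipoq and Lipe also had higher values in every TKO tumour than in any DKO tumour without passing. So did Cidec, but by a lone count in TKO3 against 0 in DKO. Cidec reached the minimum count in too few libraries to be tested. Fabp4, Lpl and Plin4 overlapped between the groups. The genes closest to markers of fat cells stayed at or under 4.42 counts-per-million (CPM, of the effective library size) in all 6 tumours. In a bulk sample, fewer cells of a type and less RNA per cell cannot be told apart.

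Of the 10 genes, 7 reached the minimum count in enough libraries to be tested and Plin1, Cidec and Lep did not. Adipoq passed the filter on low counts only through the TKO libraries. The test was edgeR's quasi-likelihood test with Benjamini-Hochberg adjustment over all 15361 genes. Of the 7 tested, 1 passed at an adjusted p under 0.05, higher in TKO, against 7.36% of all genes tested in either direction and 4.89% higher. The values of 4 of the 7 did not overlap between groups and lay higher in TKO, as did those of 17.3% of all genes tested. The median log2 fold change of the 7 was 1.58, and that of all genes tested was 0.09. Adipoq had to lie higher in TKO to be tested, and without it 3 of 6 genes did not overlap and the median was 1.19.

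The count of adipocyte genes called varied with the method and the libraries. By DESeq2, 4 of the 7 passed (Cebpa, Pparg, Adipoq and Lipe), against 18.8% of all genes tested. With no filter on low counts, 3 of 10 passed (Cebpa, Pparg and Cidec), against 4.09%. Cebpa alone passed with RLE scaling (7.34% of all genes) and with sex as a covariate (7.74%). None passed by limma-voom (7.32%), though 4 had an unadjusted p under 0.05. Without TKO1, Cebpa and Pparg passed (14.6% of all genes), and without TKO2, Pparg (2.97%). None passed without TKO3 (2.04%), DKO1 (0.237%), DKO2 (0.0123%) or DKO3 (0%), where 3 to 5 genes had an unadjusted p under 0.05 in edgeR.

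**Figure D1:**
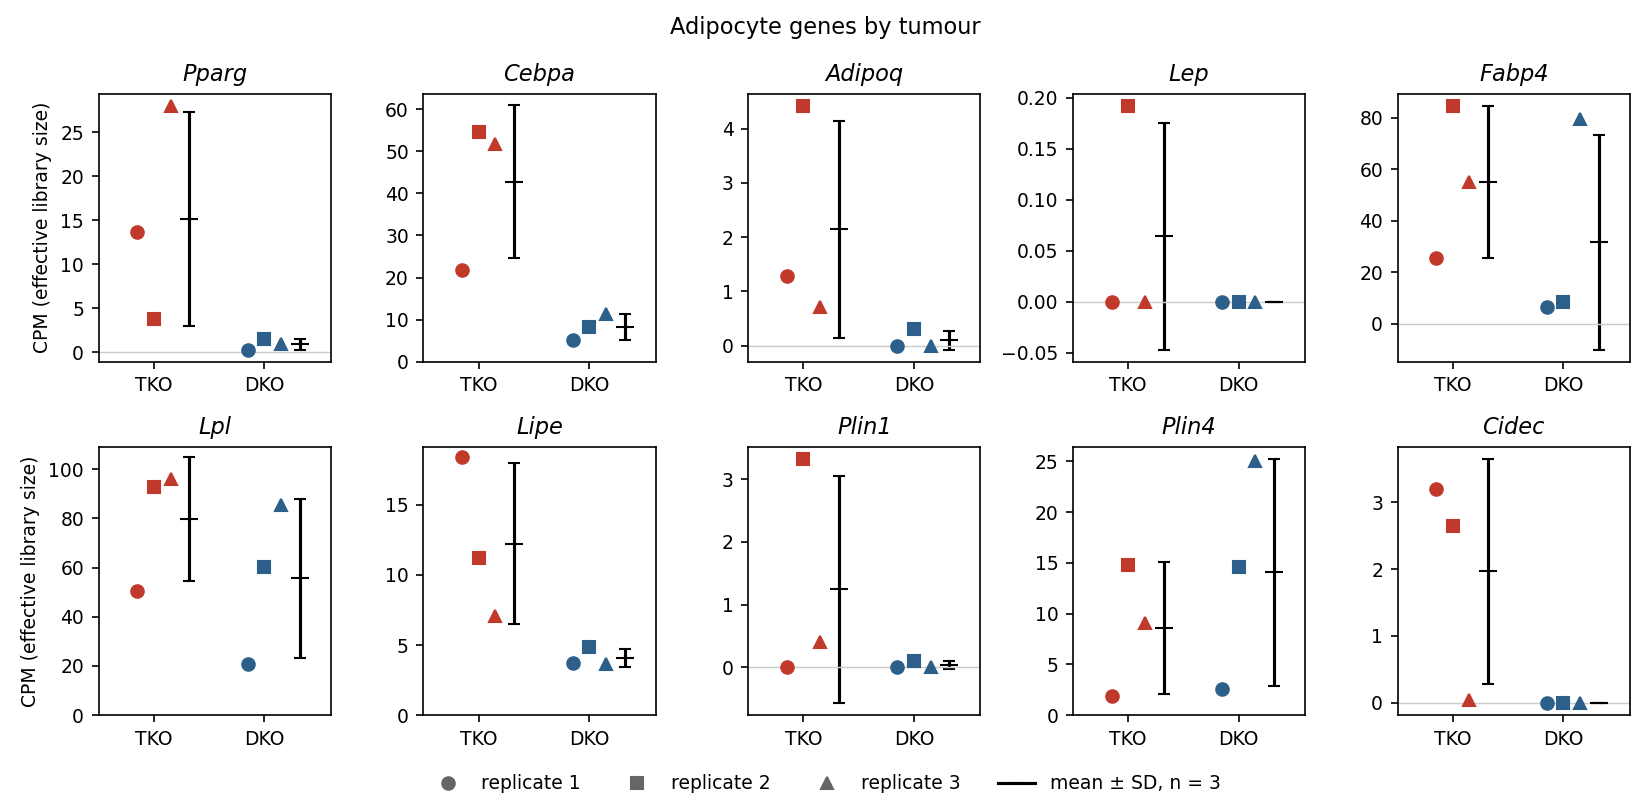
CPM of the 10 adipocyte genes in each tumour, on a linear axis of its own for each gene, with TKO tumours in red and DKO tumours in blue. Markers give the replicate and black bars the mean ± SD (n = 3). Cebpa, Pparg, Lipe, Adipoq and Cidec lie higher in every TKO tumour, Cidec by a lone count in TKO3. Fabp4 reaches 84.6 CPM in TKO2 and 79.6 CPM in DKO3.

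Among the regulators, Cebpa (ENSMUSG00000034957.10, chr7:35119293-35121928, GRCm38), which codes for C/EBP alpha, had 21.9, 54.6 and 51.8 CPM in TKO1, TKO2 and TKO3, against 5.16, 8.4 and 11.4 CPM in DKO1, DKO2 and DKO3. All 3 TKO tumours were above all 3 DKO tumours, with TKO1 the lowest of the TKO tumours. The mean was 42.8 ± 18.1 CPM in TKO and 8.31 ± 3.1 CPM in DKO (SD, n = 3 each), a log2 fold change of 2.36 (SE 0.49, edgeR adjusted p = 0.0361). Its direction held in all 12 alternatives, with log2 fold changes of 2.1 to 2.67. The call was lost without TKO2 (edgeR adjusted p = 0.0918), TKO3 (0.09), DKO1 (0.117), DKO2 (0.143) or DKO3 (0.108), and by limma-voom (0.053). Without TKO1 it stood at an edgeR adjusted p of 0.0107. Gm45091, on the opposite strand, overlaps Cebpa and had 30 counts over all libraries.

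Pparg (ENSMUSG00000000440.12, chr6:115360951-115490399), which codes for PPAR gamma, had 13.7, 3.8 and 28 CPM in TKO1, TKO2 and TKO3, against 0.298, 1.48 and 0.946 CPM in DKO1, DKO2 and DKO3. Every TKO tumour was above every DKO tumour, but TKO2 was nearer to DKO2 than to TKO3. The mean was 15.2 ± 12.2 CPM in TKO and 0.907 ± 0.59 CPM in DKO (SD, n = 3 each), a log2 fold change of 4.06 (SE 0.95). It missed the threshold in edgeR (adjusted p = 0.0512). It passed by DESeq2 (4.4e-05), with no filter on low counts (0.0135), and in edgeR without TKO1 (0.0448) or TKO2 (0.0493). Over the 12 alternatives the log2 fold change was 3.27 to 4.58, with adjusted p-values up to 0.173. The order of the TKO tumours was not that of Cebpa: TKO2 had the most Cebpa and the least Pparg.

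Pparg is transcribed from several starts. In GENCODE M21, the transcripts that begin at bases 115360951 and 115362292 code for 475 amino acids, the shorter form made in many cell types. The transcript that begins at base 115422066 codes for 505, the form known from fat cells, with an extra stretch at its start. The counts are per gene, so the 2 forms cannot be told apart here. RefSeq's promoter windows of Pparg are shown beside those of Cebpa and Adipoq because C/EBP alpha is known to act on the fat cell start of Pparg. Each runs from 250 bases before the RefSeq start site to 50 after it, 5′ to 3′ on the coding strand (GRCm38.p6). RefSeq and GENCODE place the starts of the shorter form at different bases. Motifs were searched on both strands, and capitals mark their matches. The C/EBP site was searched as TTNNGCAA. The core of nuclear receptor sites was searched as AGGTCA. The TATA box was searched as TATAAA.
Pparg, first upstream start (chr6:115360894-115361193, + strand): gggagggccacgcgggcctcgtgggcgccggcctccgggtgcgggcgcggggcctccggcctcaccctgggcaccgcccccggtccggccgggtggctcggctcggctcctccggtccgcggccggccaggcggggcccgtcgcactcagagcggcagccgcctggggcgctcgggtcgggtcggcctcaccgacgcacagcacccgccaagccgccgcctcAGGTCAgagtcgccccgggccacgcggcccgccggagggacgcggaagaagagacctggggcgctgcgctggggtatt
Pparg, second upstream start (chr6:115362099-115362398, + strand): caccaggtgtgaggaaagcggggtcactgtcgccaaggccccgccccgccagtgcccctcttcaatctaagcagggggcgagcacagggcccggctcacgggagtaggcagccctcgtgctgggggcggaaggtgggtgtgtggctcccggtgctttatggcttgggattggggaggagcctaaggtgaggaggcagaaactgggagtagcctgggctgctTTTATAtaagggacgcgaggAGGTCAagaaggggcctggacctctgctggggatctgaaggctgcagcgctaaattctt
Pparg, fat cell start (chr6:115421816-115422115, + strand): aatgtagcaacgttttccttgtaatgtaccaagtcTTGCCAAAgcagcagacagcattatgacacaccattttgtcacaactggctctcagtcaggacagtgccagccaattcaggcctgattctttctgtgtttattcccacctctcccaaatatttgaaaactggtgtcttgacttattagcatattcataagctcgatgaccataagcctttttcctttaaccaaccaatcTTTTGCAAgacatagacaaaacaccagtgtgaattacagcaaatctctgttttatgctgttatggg
Cebpa (chr7:35119043-35119342, + strand): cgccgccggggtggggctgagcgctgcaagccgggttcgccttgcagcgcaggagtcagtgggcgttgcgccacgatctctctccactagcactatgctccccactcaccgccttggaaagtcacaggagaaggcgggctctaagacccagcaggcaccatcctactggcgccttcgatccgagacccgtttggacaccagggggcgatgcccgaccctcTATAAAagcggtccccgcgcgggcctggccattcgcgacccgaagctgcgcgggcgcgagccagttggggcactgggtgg
Adipoq (chr16:23146286-23146585, + strand): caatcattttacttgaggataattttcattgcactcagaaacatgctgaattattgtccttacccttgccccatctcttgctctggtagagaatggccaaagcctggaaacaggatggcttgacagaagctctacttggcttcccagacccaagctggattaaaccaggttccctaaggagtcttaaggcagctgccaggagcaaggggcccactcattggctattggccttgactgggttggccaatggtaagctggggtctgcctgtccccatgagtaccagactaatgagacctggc

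The fat cell start of Pparg held 2 matches to TTNNGCAA, the nearer beginning 16 bases before the start site, and no AGGTCA. The first upstream start held 1 AGGTCA, 28 bases before the start site. The second held 1 AGGTCA, 9 bases before its start site, and 1 TATAAA on the opposite strand, 29 bases before it. Neither held TTNNGCAA. Cebpa held 1 TATAAA, 30 bases before its start, and Adipoq held none of the 3 motifs. RefSeq windows were found for 8 of the 10 genes, 12 windows in all, and none for Fabp4 and Lpl. TTNNGCAA was in 4 of these 12 windows (Lep, Cidec, Pparg and Plin1), against 10.8% of all 32851 promoter windows of the same length. AGGTCA was in 2, both of Pparg, against 16.3%, and TATAAA in 2, against 13.6%. The repeat bound by PPAR gamma with RXR, 2 copies of AGGTCA in a row with 1 base between them, was in none of the 12 and in 0.0396% of all windows. These matches are letters in a window and were not tied to binding.

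Among the hormones, Adipoq (ENSMUSG00000022878.5, chr16:23146536-23158028), which codes for adiponectin, had 31, 92 and 14 counts in the 3 TKO tumours, against 0, 6 and 0 counts in the 3 DKO tumours. In CPM these were 1.29, 4.42 and 0.711 in TKO and 0, 0.305 and 0 in DKO. The groups did not overlap, TKO2 was the highest, and every DKO count came from DKO2. The log2 fold change was 4.29 (SE 1.44), which did not pass in edgeR (adjusted p = 0.125) and passed by DESeq2 (0.0204). It was 8.44 without DKO2, where the DKO libraries left hold 0 counts and the fitted value depends on the prior count. Lep (ENSMUSG00000059201.12, chr6:29060220-29073877), which codes for leptin, the hormone that reports fat stores to the brain, had 4 counts in TKO2 and 0 in each of the other 5 libraries. Leptin transcripts were thus near the limit of detection, where 3 counts over a group are 0.0465 CPM in TKO and 0.0529 CPM in DKO.

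Of the genes for fatty acid binding and release, Fabp4 (ENSMUSG00000062515.3, chr3:10204088-10208576), the fatty acid-binding protein of fat cells, had the highest mean level per length. It had 25.7, 84.6 and 55.2 CPM in TKO1, TKO2 and TKO3, against 6.7, 8.5 and 79.6 CPM in DKO1, DKO2 and DKO3. The groups overlapped because DKO3 was above TKO1 and TKO3. The log2 fold change was 0.80 (SE 0.99, edgeR adjusted p = 0.655), and 2.85 without DKO3 (adjusted p = 0.104). DKO3 held Fabp4 at 79.6 CPM with 0 counts of Adipoq, Plin1, Cidec and Lep. The macrophage genes C1qa, C1qb, C1qc, Ptprc and Laptm5 also had 0 counts in DKO3, whereas Cd68 had 90.4 CPM of the 104 CPM that the 12 macrophage markers summed to. Mertk followed Cd68 at 10.8 CPM in DKO3. The 10 endothelial markers summed to 11.4 CPM in DKO3. Which cells held the Fabp4 transcripts of DKO3 was not tested.

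Lpl (ENSMUSG00000015568.16, chr8:68880491-68907448) codes for lipoprotein lipase, which frees fatty acids from circulating triglyceride. It had 50.5, 92.6 and 95.8 CPM in TKO1, TKO2 and TKO3, against 21, 60.3 and 85.4 CPM in DKO1, DKO2 and DKO3. TKO1 lay below DKO2 and DKO3, so the groups overlapped, and the log2 fold change of 0.52 (SE 0.53) did not pass in edgeR (adjusted p = 0.583). No alternative gave a call, with log2 fold changes of 0.12 to 0.97. Lipe (ENSMUSG00000003123.15, chr7:25379527-25398710), which codes for hormone-sensitive lipase, an enzyme that breaks down stored fat, had 18.4, 11.2 and 7.06 CPM in TKO1, TKO2 and TKO3, against 3.72, 4.84 and 3.67 CPM in DKO1, DKO2 and DKO3. Its groups did not overlap, and TKO1, low for Cebpa, Fabp4 and Lpl, was the highest. The mean was 12.2 ± 5.74 CPM in TKO and 4.08 ± 0.66 CPM in DKO (SD, n = 3 each). The log2 fold change of 1.58 (SE 0.5) did not pass in edgeR (adjusted p = 0.11) and passed by DESeq2 (0.0121). An overlapping gene on the opposite strand, 4732471J01Rik, had 87 counts over all libraries, against 815 counts of Lipe in TKO and 232 in DKO.

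None of the 3 lipid droplet genes was called with low counts filtered. Plin1 and Cidec were not tested, and Plin4 did not pass. Plin1 (ENSMUSG00000030546.14, chr7:79720218-79732903), the main droplet coat protein of fat cells and a gate for lipolysis, had 0, 69 and 8 counts in the 3 TKO tumours, against 0, 2 and 0 counts in the 3 DKO tumours. The groups met at 0 in TKO1, and TKO2 held most of the counts. The ratio of group totals was 33.8 (exact 95% counting interval 9.05 to 284, which covers counting error only). Cidec (ENSMUSG00000030278.11, chr6:113424634-113435760), which fuses droplets into larger ones, had 77, 55 and 1 counts in the 3 TKO tumours and 0 counts in every DKO library. It was at least 38.9-fold higher in TKO, set against 3 counts over the DKO group, but TKO3 held a lone count. With no filter on low counts it could be tested with all 6 libraries and passed in edgeR (adjusted p = 0.0449).

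Plin4 (ENSMUSG00000002831.14, chr17:56100591-56109803), a droplet coat protein that is also made in muscle, had 1.87, 14.8 and 9.09 CPM in TKO1, TKO2 and TKO3, against 2.58, 14.6 and 25 CPM in DKO1, DKO2 and DKO3. Its spread within each group was wider than the gap between them. The log2 fold change was -0.71 (SE 0.96, edgeR adjusted p = 0.689), and it was below 0 in all 12 alternatives, from -1.35 to -0.02. Hdgfl2, on the opposite strand, overlaps Plin4 by a few bases at its end and had 9942 counts over all libraries.

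Per length of transcript, the order of the mean levels in TKO was Fabp4, Lpl, Cebpa, Pparg, Lipe, Cidec, Adipoq, Plin4, Plin1 and Lep. Fabp4 had 61.6 ± 32.8 CPM per kb in TKO and 35.3 ± 46.4 CPM per kb in DKO (SD, n = 3 each). Lpl had 19.4 ± 6.13 CPM per kb in TKO and 13.5 ± 7.88 CPM per kb in DKO, and Cebpa 16.3 ± 6.9 CPM per kb in TKO and 3.16 ± 1.18 CPM per kb in DKO. Lpl and Cebpa therefore differed by less than their spread in TKO, as did Cidec (2.5 ± 2.14), Adipoq and Plin4 (1.49 ± 1.13). In DKO the order was Fabp4, Lpl, Cebpa, Plin4, Lipe, Pparg, Adipoq and Plin1, with Cidec and Lep at 0 counts. The first place of Fabp4 in DKO rested on DKO3: without it the DKO means were 8.48 CPM per kb of Fabp4 and 9.89 CPM per kb of Lpl. Pparg had 8.59 ± 6.9 CPM per kb in TKO and 0.513 ± 0.334 CPM per kb in DKO. Adipoq, one of the most abundant transcripts of fat tissue, had 1.66 ± 1.55 CPM per kb in TKO and 0.0788 ± 0.136 CPM per kb in DKO.

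The TKO tumours did not share a rank order over the 10 genes. TKO2 was highest among them for 6 genes (Adipoq, Fabp4, Plin1, Plin4, Lep and Cebpa), TKO3 for Pparg and Lpl, and TKO1 for Cidec and Lipe. In DKO, DKO1 was the lowest for Fabp4, Plin4, Pparg, Cebpa and Lpl, and DKO3 the highest for Fabp4, Plin4, Cebpa and Lpl. Genes at 0 counts numbered 2 in TKO1, 0 in TKO2 and 1 in TKO3, against 4 in DKO1, 2 in DKO2 and 4 in DKO3.

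Most markers of other cells that express some of these genes were higher in TKO. In edgeR 7.36% of all genes tested passed in either direction and 4.89% passed higher in TKO. Of 12 macrophage markers 10 rose in edgeR, and 10 passed by limma-voom. The 12 summed to 823 to 2510 CPM in TKO and 29.4 to 156 CPM in DKO, where C1qa, C1qb and C1qc had 0 counts. All 10 endothelial markers rose in edgeR, and 8 passed by limma-voom. The 10 summed to 181 to 915 CPM in TKO and 9.93 to 11.4 CPM in DKO, where Emcn had 0 counts. Of 10 skeletal muscle markers 9 rose in edgeR, and 4 passed by limma-voom. The 10 summed to 702, 10400 and 1830 CPM in the 3 TKO tumours and 12.8 to 24.7 CPM in DKO, where Myog had 0 counts. Myog, a muscle differentiation factor that was not called, had 115, 4.9 and 2.95 CPM in TKO, with TKO1 the highest. TKO2, the highest for Adipoq and Plin1, was also the highest for all 3 sums. Of the genes called in edgeR, 7 macrophage, 4 endothelial, 4 muscle and 1 osteoblast markers reached the filter's minimum in TKO libraries alone. Those markers had to be higher in TKO to be tested, so their direction adds nothing to the counts above. Haemoglobin genes, which mark blood, had 27474, 1761 and 8633 counts in TKO, against 0, 7 and 5 counts in DKO. The part of blood, macrophages, endothelium and muscle in the values of Cebpa, Pparg, Lipe and Adipoq was not tested. The sums of these markers and Skp2 status separate the tumours in the same way, so their parts cannot be told apart here.

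**Figure D2:**
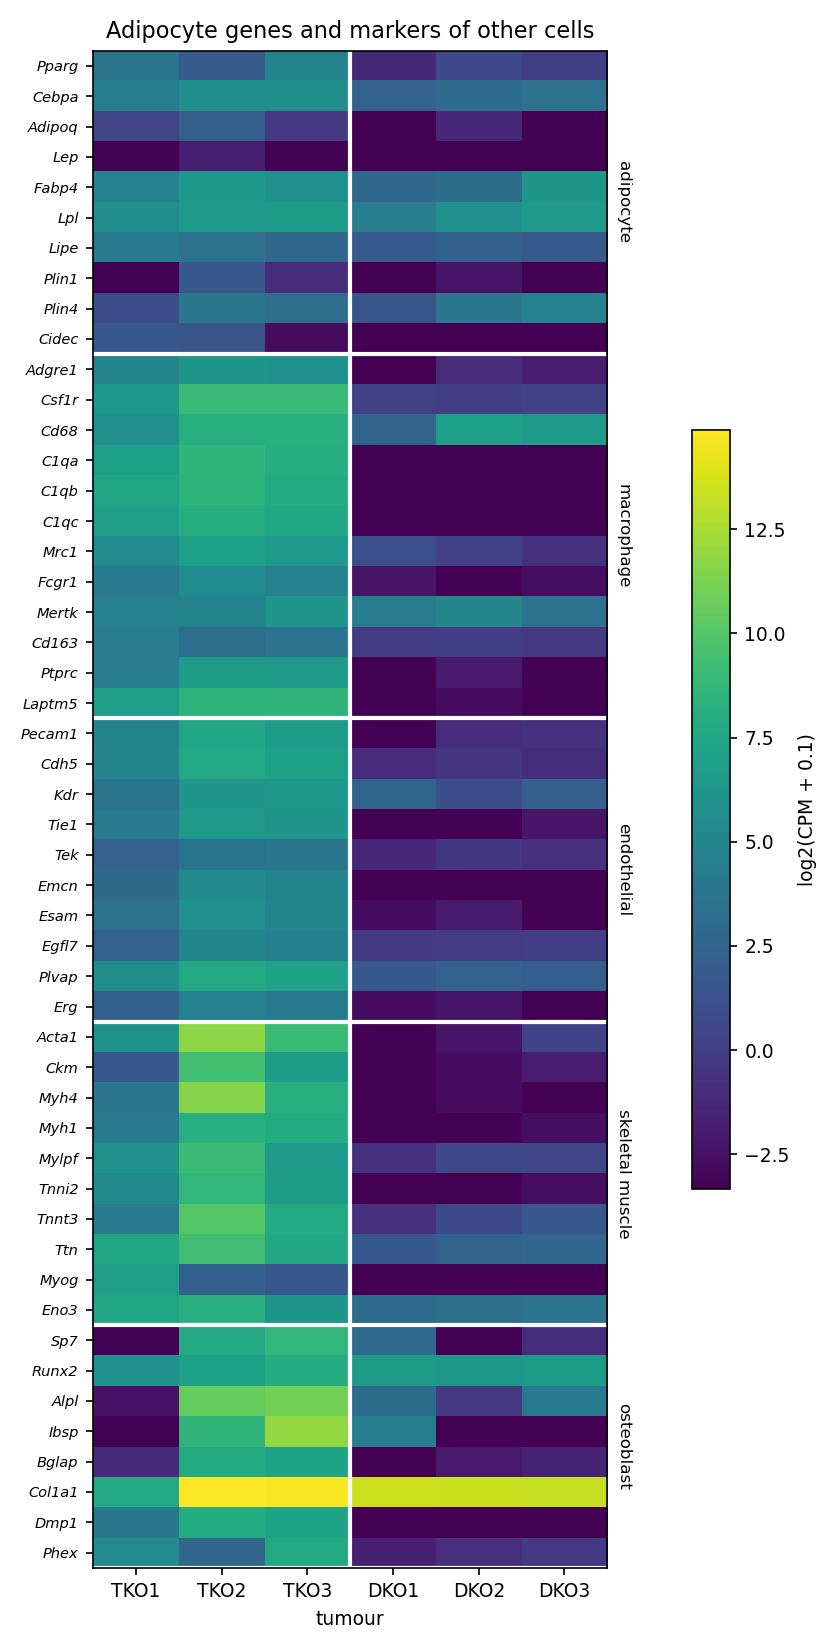
Level of the 10 adipocyte genes and of macrophage, endothelial, skeletal muscle and osteoblast markers in each tumour, as log2(CPM + 0.1), TKO tumours left of DKO tumours. Most macrophage, endothelial and muscle markers are dark in all 3 DKO tumours. Exceptions include Cd68, Mertk and the muscle marker Eno3, at 8.58, 10.4 and 12.5 CPM in DKO. Fabp4 is bright in DKO3, where most of those markers are dark.

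Among the 39 tested markers of these 4 kinds of cell, those with the closest profile over the 6 libraries were found by Euclidean distance of centred log2 CPM. For Pparg they were the macrophage gene Cd163 (distance 2.28) and the endothelial gene Tek (2.62). For Cebpa they were the endothelial genes Kdr (2.36) and Tek (2.44), and for Adipoq the muscle enzyme gene Eno3 (1.99) and Tek (2.58). Lpl lay closest to the osteoblast factor gene Runx2 (1.78) and to Mertk (2.31), and Lipe to Mertk (2.35) and Runx2 (2.77). Fabp4 and Plin4 were each closest to Runx2 (3.22 and 3.08) and Cd68 (3.36 and 3.63). With 6 libraries that share 1 split into groups, these distances are a description. The profiles were centred but not scaled, so the distance also depends on the size of each gene's change. A close marker therefore does not show a shared cell type.

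**Figure D3:**
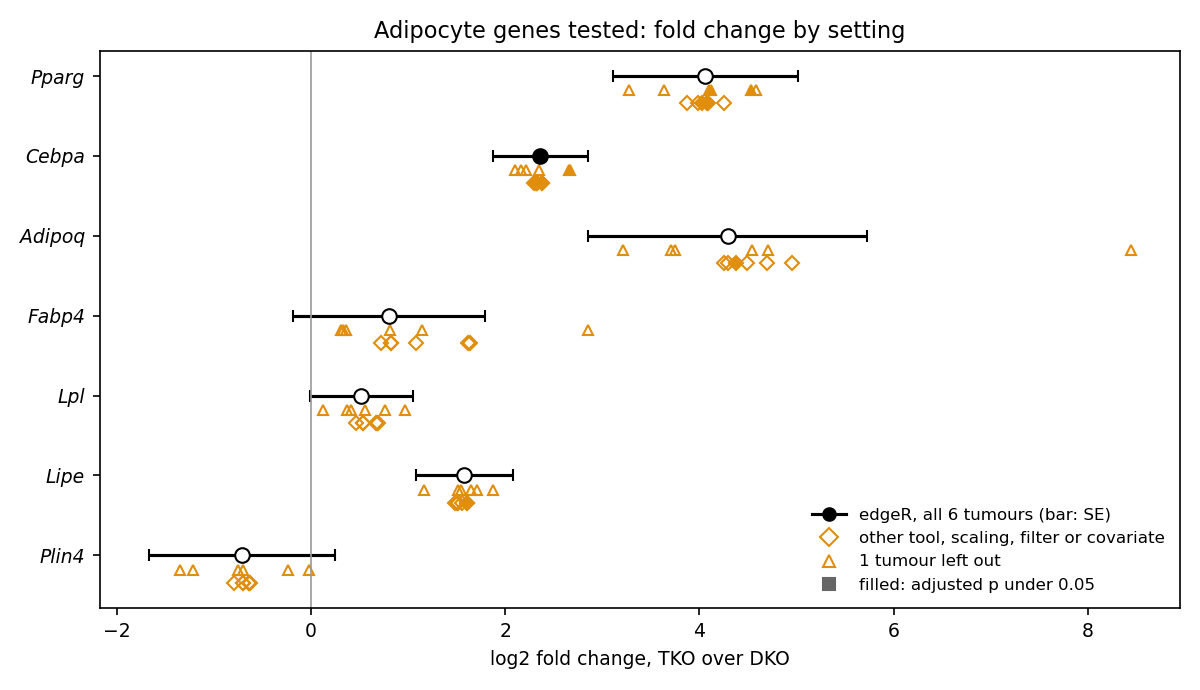
Log2 fold change (TKO over DKO) of the 7 tested adipocyte genes. Circles give edgeR with all 6 tumours and its SE, diamonds another tool, scaling, filter or covariate, and triangles 1 tumour left out. Filled symbols have an adjusted p under 0.05. Pparg, Cebpa, Adipoq and Lipe lie above 0 throughout, and Fabp4 moves from 0.80 to 2.85 without DKO3.

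None of 12 further regulators of fat cell differentiation passed in edgeR, where 5 had an unadjusted p under 0.05. By DESeq2 3 passed and by limma-voom 1, against 7.36% of all genes by edgeR, 18.8% by DESeq2 and 7.32% by limma-voom, the shares to set beside the counts of the other lists too. Their median log2 fold change was -0.38. The values of 4 lay lower in every TKO tumour, against 15.6% of all genes tested, and those of 1 lay higher, against 17.3%. That gene, named after its values were seen, was Zfp423, an early fat cell factor, at 0.789, 5.14 and 1.88 CPM in TKO and 0.0992, 0.611 and 0.71 CPM in DKO (edgeR adjusted p = 0.184). Cebpd, an early inducer of Pparg and Cebpa, averaged 53 ± 17.7 CPM in TKO and 166 ± 70.8 CPM in DKO (SD, n = 3 each; edgeR adjusted p = 0.0609). Klf15, a factor that supports fat cell differentiation, had 0.664, 2.4 and 4.67 CPM in TKO, against 22.1, 17.1 and 11.7 CPM in DKO (edgeR adjusted p = 0.0755).

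Of 7 tested brakes on differentiation, Klf2 rose and Ddit3 fell. DESeq2 called these and Wnt10b, and limma-voom called Ddit3 alone. Klf2, which represses Pparg and is also made by endothelium, averaged 35.5 ± 29.9 CPM in TKO and 4.15 ± 1.31 CPM in DKO (SD, n = 3 each; log2 fold change 3.10, edgeR adjusted p = 0.0494). Ddit3, a stress-induced partner that blocks C/EBP factors, averaged 15 ± 5.86 CPM in TKO and 98.2 ± 47.1 CPM in DKO (log2 fold change -2.71, edgeR adjusted p = 0.0267). Wnt10b, a Wnt ligand that holds back fat cell fate, had 0.706, 38 and 26.4 CPM in TKO, against 3.97, 0.916 and 1.42 CPM in DKO (edgeR adjusted p = 0.169). Gata3, a factor that keeps preadipocytes undifferentiated, averaged 0.734 ± 1.11 CPM in TKO and 6.46 ± 5.61 CPM in DKO (edgeR adjusted p = 0.221). Dlk1, a marker of preadipocytes named after its values were seen, had 0 counts in all 6 libraries, where 3 counts would be 0.0247 CPM.

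**Figure D4:**
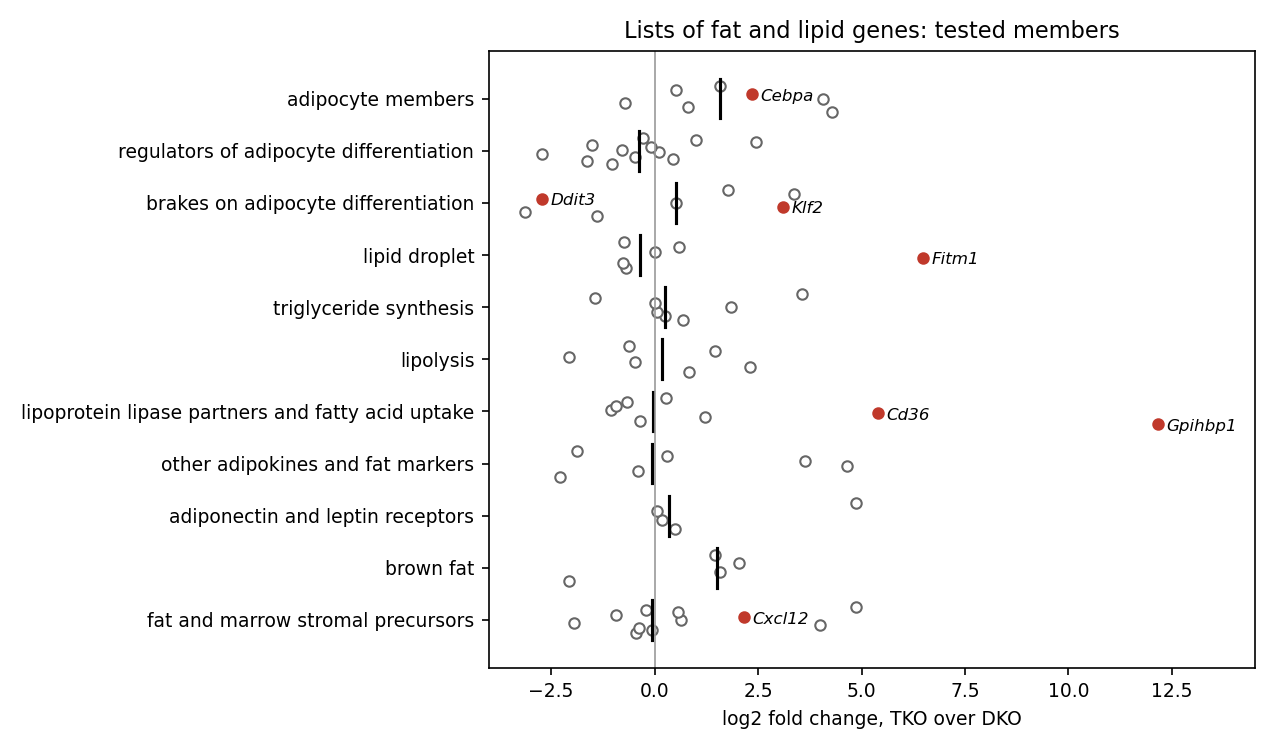
Log2 fold change (TKO over DKO, edgeR, all 6 tumours) of the tested genes in each list. Red points passed at an adjusted p under 0.05 and black bars give the list's median. Apart from the brakes (0.52) and brown fat (1.51), the medians of the fat pathway lists lie between -0.38 and 0.34, and the point of Gpihbp1 is a fitted value set against 0 counts in DKO.

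Among partners of lipoprotein lipase and genes of fatty acid uptake, Gpihbp1 and Cd36 rose. Gpihbp1, which holds the lipase on capillary endothelium, had 13.2, 35.3 and 37 CPM in TKO1, TKO2 and TKO3 and 0 counts in every DKO library, at least 521-fold higher in TKO (edgeR adjusted p = 0.0133). Cd36, a fatty acid carrier of endothelium, macrophages, muscle and fat, had 36.7, 43.1 and 27 CPM in TKO and 1.24, 1.27 and 0 CPM in DKO (edgeR adjusted p = 0.0378). They were the 2 of 8 tested that passed, against 7.36% of all genes, also by DESeq2 and limma-voom. Gpihbp1 reached the filter's minimum in TKO libraries alone and so had to be higher there. The list's median log2 fold change was -0.04. The other 6 included Fabp5 at 57 ± 30 CPM in TKO and 108 ± 72.7 CPM in DKO, and the lipase inhibitor Angptl4 at 231 ± 196 CPM in TKO and 98.9 ± 92.5 CPM in DKO. Endothelial markers, all of them higher in TKO, shared the group difference of Gpihbp1 and Cd36. Within TKO the summed endothelial markers were lowest in TKO1 (181 CPM, against 638 CPM in TKO3), as was Gpihbp1, whereas Cd36 was lowest in TKO3. Cd36 had 0 counts in DKO3, where the endothelial sum was 11.4 CPM, against 10.7 CPM in DKO1 and 9.93 CPM in DKO2. The part of endothelial cells in the values of Gpihbp1 and Cd36 was not tested.

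Of 6 other lipid droplet genes tested, Fitm1, a droplet gene of muscle, rose. It had 67, 56 and 20 counts in TKO and 0, 0 and 1 counts in DKO, a ratio of 126 (exact 95% counting interval 22.2 to 4990; edgeR adjusted p = 0.0249). Fitm1 too reached the filter's minimum in TKO libraries alone. The list's median log2 fold change was -0.35, with Hilpda at 16.9 ± 2.99 CPM in TKO and 28 ± 5.71 CPM in DKO. Plin3, a droplet coat protein made in many cell types, averaged 62.2 ± 19.3 CPM in TKO and 104 ± 25.7 CPM in DKO (edgeR adjusted p = 0.226). None of 7 triglyceride synthesis genes passed in edgeR (median 0.26), where 3 had an unadjusted p under 0.05, and 3 passed by DESeq2 and 0 by limma-voom. Dgat2, which adds the last fatty acid, had 9.22, 9.9 and 4.98 CPM in TKO, against 18.4, 23.9 and 23.5 CPM in DKO (adjusted p = 0.0755). Lpin1, which makes its substrate, averaged 36.7 ± 24.3 CPM in TKO and 10.2 ± 1.55 CPM in DKO (adjusted p = 0.0778). None of 6 lipolysis genes passed in edgeR (median 0.18), where 3 had an unadjusted p under 0.05, and 2 passed by DESeq2 and 0 by limma-voom. The main triglyceride lipase gene, Pnpla2, stood at 64.7 ± 13.7 CPM in TKO and 36.4 ± 9.85 CPM in DKO, and its inhibitor G0s2 at 1.69 ± 0.924 CPM in TKO and 7.09 ± 3.75 CPM in DKO.

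Of 10 other adipokines and fat markers 6 could be tested and none passed in edgeR (median -0.06), where 3 had an unadjusted p under 0.05, and 3 passed by DESeq2 and 0 by limma-voom. The insulin-regulated glucose carrier gene Slc2a4, shared by fat and muscle, had 1.5, 25.8 and 7.62 CPM in TKO, against 0.744, 0.255 and 0.355 CPM in DKO (adjusted p = 0.058). Apln, which codes for apelin, averaged 36.9 ± 17.3 CPM in TKO and 136 ± 66.7 CPM in DKO (adjusted p = 0.0776). Cfd, the adipsin gene of fat cells, was named after its values were seen. It had 114, 379 and 6 counts in the 3 TKO tumours, against 0, 2 and 0 counts in the 3 DKO tumours. TKO3 was the lowest of the TKO tumours, as for Adipoq, Cidec and Lipe, whereas TKO1 was the lowest for 5 of the 10 adipocyte genes, Plin1 among them.

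Receptors for the fat hormones did not pass in edgeR in any of 4 genes (median 0.34), where 1 had an unadjusted p under 0.05, and 1, Lepr, passed by DESeq2 and 0 by limma-voom. Lepr, the leptin receptor and a marker of marrow stroma that can turn into fat or bone, had 0.872, 24.6 and 23 CPM in TKO1, TKO2 and TKO3, against 0.695, 0.865 and 0.0592 CPM in DKO1, DKO2 and DKO3 (adjusted p = 0.0873). TKO1 lay just above DKO2, and TKO2 and TKO3 far above. Adipor1, a receptor for adiponectin, averaged 216 ± 41.7 CPM in TKO and 153 ± 10.6 CPM in DKO (edgeR adjusted p = 0.288). Of 11 genes of fat and marrow stromal precursors, Cxcl12, a chemokine of that stroma, rose, at 136 ± 34 CPM in TKO and 30.2 ± 12.1 CPM in DKO (SD, n = 3 each; log2 fold change 2.17, edgeR adjusted p = 0.0291). Pi16, a marker of early fat precursors, had 1.25, 37.5 and 3.56 CPM in TKO, against 0.695, 1.07 and 0.887 CPM in DKO (edgeR adjusted p = 0.117). DESeq2 called Pi16 and Lepr beside Cxcl12, and limma-voom called Cxcl12 alone. Of 8 brown fat genes 4 could be tested (median 1.51), and 0 passed by edgeR, DESeq2 or limma-voom, with 0, 1 and 1 of them at an unadjusted p under 0.05. Ppargc1a, a coactivator of mitochondrial genes, stood at 19.7, 1.39 and 0.457 CPM in TKO and 1.04, 2.19 and 2.01 CPM in DKO. Dio2, which activates thyroid hormone, averaged 3.76 ± 3.69 CPM in TKO and 15.8 ± 9.17 CPM in DKO (edgeR adjusted p = 0.267). The calls of Klf2, Ddit3, Gpihbp1, Cd36, Fitm1 and Cxcl12 were each lost without DKO1, DKO2 or DKO3. All but Gpihbp1 were also lost without TKO3, and Klf2, Cd36, Fitm1 and Cxcl12 without TKO2. Klf2 did not pass by limma-voom (adjusted p = 0.124), nor Cd36 with no filter on low counts (0.0559).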

How the data were processed

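Per the labels' protocols, RNA selected with oligo(dT) beads from 6 tumours was sequenced on an Illumina HiSeq. The deposited values are raw counts, whole numbers of reads assigned to each gene without normalization. STAR 2.6.1 and the build mm10 are named in the submitters' processing notes. Which annotation the authors counted against is not given. The series table was used. It differed from the either-strand column of the library files in 0 genes. Strand was not marked: the first-strand column held 50.2 to 51.3% of stranded counts. The 4 lines of reads in no gene were left out. These were 2.53 to 3.2% unmapped, 3.94 to 4.7% at several places, 5.33 to 9.3% in no gene and 5.1 to 6.53% in more than 1 gene.

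Gene IDs were matched to symbols without version (55154 of 56196). Positions and transcript lengths (of the basic coding transcript with the longest coding sequence) came from GENCODE M21 (GRCm38, the assembly of mm10), promoters from RefSeq. Genes were kept by filterByExpr (minimum count 10), scaled by TMM and compared between TKO and DKO by edgeR 4.0.16 quasi-likelihood tests (robust, no covariate; R 4.3.3). P-values were adjusted by Benjamini-Hochberg, with 0.05 as the threshold. CPM is the count scaled by the TMM-corrected library size. The SE is the log2 fold change over the square root of F. Folds against 0 counts use 3 counts over the group. Intervals and floors cover counting error only, as reads had no molecular identifiers. Alternatives were RLE scaling, no filter, DESeq2 1.42.0, limma-voom 3.58.1, a replicate block, sex as a covariate, and each tumour left out. The test was tried on simulated counts. All pairs of libraries differed by more than sampling noise. The titles give each tumour a code of its own and each group holds both sexes. What the codes stand for is not spelled out. They end in T in every TKO tumour and in R in every DKO tumour, so what that letter stands for cannot be told apart from genotype. The p-values rest on the spread among these tumours.

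The members and lists were chosen with earlier results of these data known. The named genes were all 10 members and, from each fat pathway list, every gene called and the 2 uncalled genes with the smallest p. For each tested member the 2 nearest marker genes were also named.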

Additional observations from a re-analysis of the deposited data

How the results depend on the processing

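The direction of all 7 tested adipocyte genes held in all 12 alternatives. The number of them called was 1 with all libraries and 1 with RLE scaling or sex as a covariate (Cebpa each time). It was 4 by DESeq2, where 18.8% of all genes passed, and 3 of 10 with no filter on low counts, where 4.09% passed. It was 0 by limma-voom, with 4 of the 7 at an unadjusted p under 0.05. With 1 tumour left out it was 0 to 2, at 0 without TKO3, DKO1, DKO2 or DKO3, where 3 to 5 of 8 tested had an unadjusted p under 0.05. Over all genes, 1131 changed with all libraries, 2893 by DESeq2 and 0 to 2385 with 1 tumour left out. The 0 came without DKO3, where 3017 genes had an unadjusted p under 0.05 and the smallest adjusted p in edgeR was 0.0545, and 2 and 39 were called without DKO2 and DKO1. DESeq2 and limma-voom were not run on these subsets. The cause of these shifts was not tested. A replicate block left 295 genes changed and 0 adipocyte genes called, with 4 of 7 at an unadjusted p under 0.05 and Cebpa at an adjusted p of 0.0515. It also ended the calls of Klf2 (0.0691), Gpihbp1 (0.0503), Cd36 (0.0831), Fitm1 (0.0886) and Cxcl12 (0.0785). Tumours with the same number did not deviate together (correlations of -0.00699, 0.00889 and -0.0167), nor did every tumour correlate best with its own number, so they share only a number. Depth limits Lep, Plin1 and Cidec, at 4, 79 and 133 counts over the 6 libraries.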
